A study of Mus musculus with 2 samples.

Results

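The fibroblast growth factor (FGF) system of newborn mouse muscle was described from its ligands, receptors, co-receptors and feedback inhibitors. The members were all protein-coding genes with the GENCODE mouse symbols Fgf and a number, Fgfr1 to Fgfr4, Fgfrl1, Kl, Klb, Spry1 to Spry4 and Spred1 to Spred3. The rule named 36 genes, and 35 of them were matched by Ensembl ID among the 43346 gene IDs of the tables of both animals (Spry3 was not analysed here). They comprise 18 secreted ligands, 4 FGFs that stay inside the cell, 4 kinase receptors, the receptor Fgfrl1, which lacks the kinase, 2 klotho co-receptors, 3 Sprouty genes and 3 Spred genes.

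Total RNA was sequenced from skeletal muscle of B6NCrl mouse pups on postnatal day 0, with 1 library from pup 1 (replicate 1) and 1 from pup 2 (replicate 2). Both are labelled as pups of the same pregnancy, and the labels name no genotype beyond the strain and no treatment, so there is 1 group and no comparison of conditions. Which muscle was dissected is not stated, sex was not collected, and both pups carry the same donor entry, so the spread between them is biological only if they are separate animals. The input was 10 ng of RNA over 200 nt for each library, and the gene rows held 40454569 expected counts in replicate 1 and 37150646 in replicate 2. Levels are given as TPM, the length-corrected unit of transcript abundance in the deposited tables, and as mean ± SD with n = 2. With 1 library per pup no test was run.

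FGFs signal through receptor tyrosine kinases and need a helper on the cell surface. Most secreted FGFs bind heparan sulfate and act near the cell that made them, whereas the hormone-like FGFs circulate and need a klotho protein beside the receptor. The activated kinase passes its signal through adaptors to Ras and ERK, and Sprouty and Spred proteins are induced by or act on this route and damp it. In muscle, FGFs are known for holding myoblasts and satellite cells in a proliferating state, Fgf6 is known for its expression in the myogenic lineage, and Fgfr4 marks myoblasts and newly forming fibres.

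Ligand choice of Fgfr1, Fgfr2 and Fgfr3 depends on a pair of mutually exclusive exons that code for part of the third immunoglobulin-like loop. The IIIb exon is used mainly by epithelia and the IIIc exon mainly by mesenchyme. The exons of Fgfr3 are shown because the pups differed most in the forms of this receptor. They were cut from GENCODE M21 transcripts of mm10, lower case, with capitals for runs of 6 or more aligned bases that the IIIb and IIIc exons share.
Fgfr3 IIIb (chr5:33731281-33731431, plus strand): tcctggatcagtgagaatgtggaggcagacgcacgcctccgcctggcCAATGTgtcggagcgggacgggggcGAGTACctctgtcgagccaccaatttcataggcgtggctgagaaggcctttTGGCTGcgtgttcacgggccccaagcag
Fgfr3 IIIc (chr5:33732117-33732261, plus strand): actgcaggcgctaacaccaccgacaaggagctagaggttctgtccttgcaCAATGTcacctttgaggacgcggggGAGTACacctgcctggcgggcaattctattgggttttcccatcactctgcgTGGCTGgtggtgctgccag

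The Fgfr3 exons shared 50.6% of aligned positions, and the capitals show that the shared runs were short.

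A mean level of at least 1 TPM was reached by 22 of the 35 members (62.9%), against 58.2% of the 21474 protein-coding genes, so the share of members lay near the background. The summed level of the members was 312.79 TPM in replicate 1 and 299.22 TPM in replicate 2. The 5 highest members, Fgfrl1, Spry2, Fgf13, Fgfr1 and Fgfr4, held 69.6% and 75.1% of it. Of the 21 pairs of neighbours in the order of mean levels at or above 1 TPM, 9 kept their order in both pups and 12 did not. The first 4 steps, from Fgfrl1 down to Fgfr4, were among the 9. Neighbours changed places between the pups in the runs from Fgfr4 to Spry1, from Fgf1 to Fgf6, from Spred1 to Fgf9 and from Fgf16 to Fgf2.

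**Figure D1:**
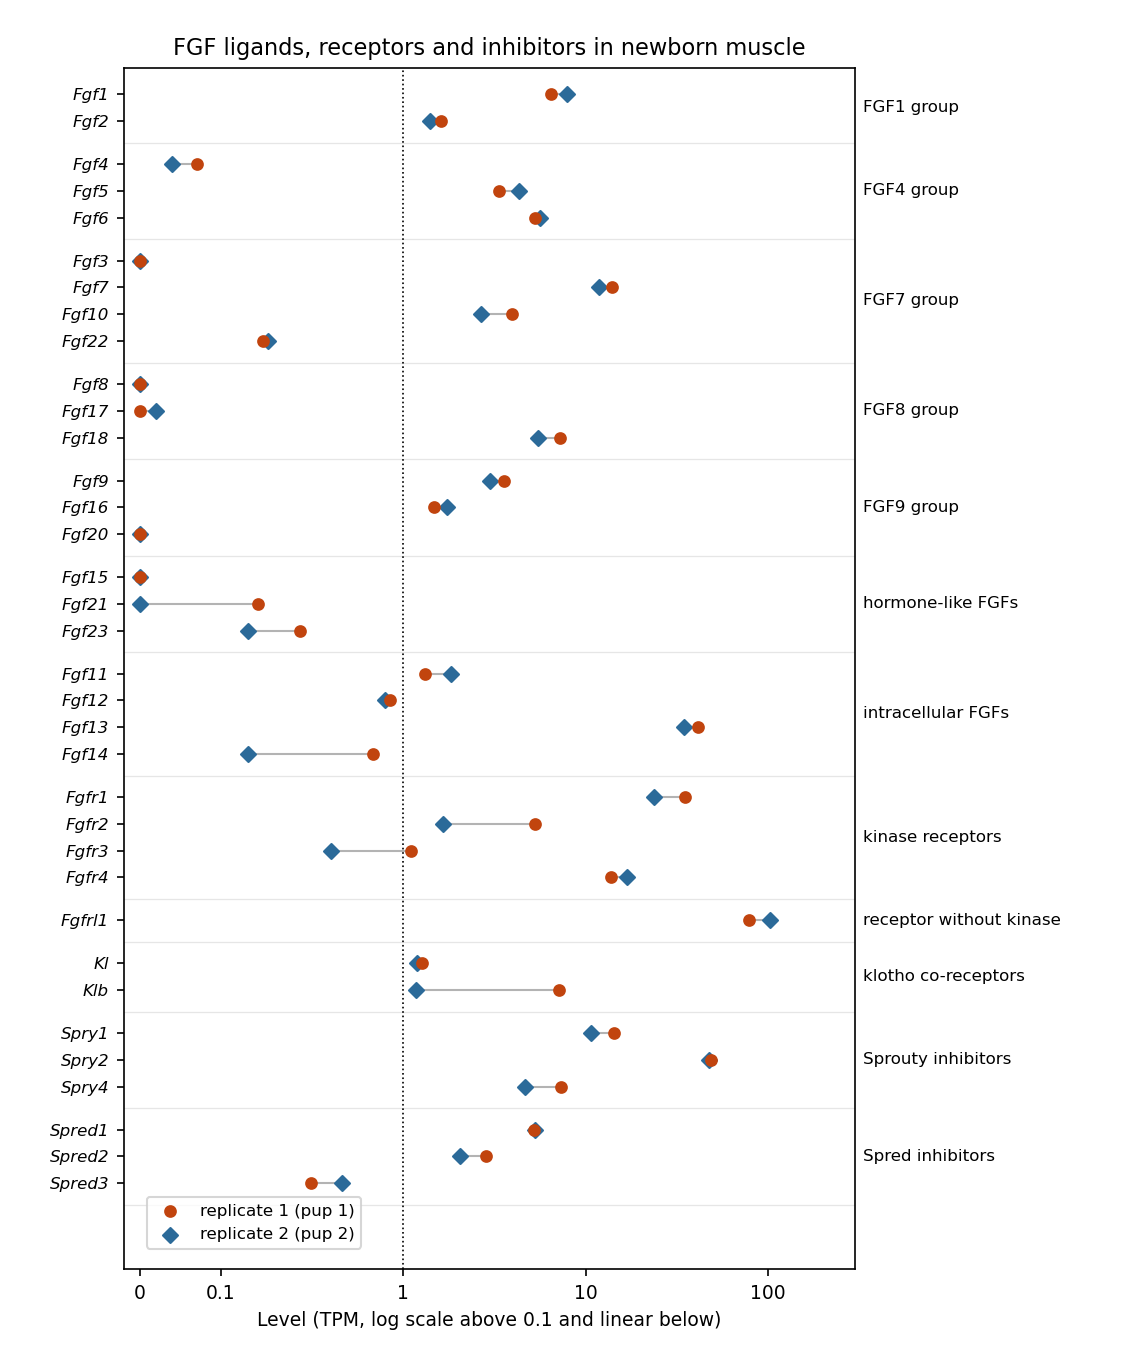
Level of each member in replicate 1 (circles) and replicate 2 (diamonds), in TPM on an axis that is logarithmic above 0.1 and linear below, grouped by role, with a dotted line at 1 TPM. Fgfrl1 lies farthest right at 78.88 and 101.91 TPM, 4 ligands lie at 0 in both pups, and Klb, Fgfr2, Fgfr3 and Fgf14 show wide gaps between the pups.

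Of the 18 secreted ligands, 9 reached 1 TPM, and their summed level was 47.52 TPM in replicate 1 and 44.27 TPM in replicate 2. Fgf7 (ENSMUSG00000027208, chromosome 2, 126034658 to 126091185), a mesenchymal factor that acts on epithelia through the IIIb form of Fgfr2, was the highest at 13.94 TPM in replicate 1 and 11.83 TPM in replicate 2. It held 29.3% and 26.7% of the secreted ligand TPM. Its relative Fgf10, the mesenchymal ligand of limb and lung outgrowth, had 3.92 TPM in replicate 1 and 2.68 TPM in replicate 2, a log2 ratio of Fgf7 over Fgf10 of 1.95 ± 0.21. The order Fgf7 above Fgf10 was the same in both pups.

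Fgf1, the ligand that binds every kinase receptor form, had 6.48 TPM in replicate 1 and 7.87 TPM in replicate 2. Fgf2, the other member of its group and a mitogen of cultured satellite cells, had 1.61 and 1.40 TPM on only 31.26 and 26 counts. The gap between them was 2.18 ± 0.33 on the log2 scale of TPM, which depends on model length. The leading model was 3981 nt for Fgf1 and 754 nt for Fgf2, and GENCODE M21 gives this Fgf2 model a different length. Fgf1 had 612 and 738 counts, so the gap was wider by counts. Fgf2 overlaps the antisense gene Nudt6 over 640 exonic bases, and whether counting used strand is not given in the sources used here, so its few reads are uncertain.

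Fgf6 (ENSMUSG00000000183, chromosome 6, 127015586 to 127028187), the FGF of the myogenic lineage, had 5.28 TPM in replicate 1 and 5.62 TPM in replicate 2, from 179 and 180 counts. Fgf5, a hair-cycle regulator of the same group, had 3.34 and 4.33 TPM. Fgf4, an early embryonic FGF and the third gene of this group, had 6 and 3 counts, or 0.07 and 0.04 TPM. Fgf6 thus exceeded Fgf5 in both pups, by 0.51 ± 0.20 on the log2 scale, and Fgf4 lay below both. The Fgf6 model in the tables is 1232 nt, and the model of the same name in GENCODE M21 has a different length, on which a TPM level depends.

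Fgf18, a regulator of cartilage and bone growth, had 7.26 TPM in replicate 1 and 5.45 TPM in replicate 2. Fgf9, which supports mesenchymal growth in many organs, had 3.55 and 2.97 TPM. Fgf16, its close relative, had 1.47 and 1.74 TPM from 68 and 76 counts. The 95% counting intervals of the ratio between the pups included equality for Fgf18, Fgf9 and Fgf16.

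The ligands of early patterning and the hormones were at or near 0. Fgf3, Fgf8, Fgf15 and Fgf20 had 0 counts in both libraries, a result that allows at most 3 counts in a library, or 7.42e-06% of all counts in replicate 1 and 8.08e-06% in replicate 2. Fgf17 had 0 counts in replicate 1 and 1 in replicate 2, and Fgf22 had 2 in each. The bone hormone Fgf23 had 14 and 7 counts, or 0.27 and 0.14 TPM. The metabolic hormone Fgf21 had 4 counts in replicate 1 and 0 in replicate 2. None of the 3 hormone-like FGFs reached 1 TPM.

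The FGFs that stay in the cell do not bind receptors in the way of secreted FGFs and are known as partners of voltage-gated sodium channels, with a microtubule role also reported for Fgf13. Fgf13 (ENSMUSG00000031137, chromosome X, 59062145 to 59568071) dominated them with 41.36 TPM in replicate 1 and 34.83 TPM in replicate 2, or 93.6% and 92.7% of the summed TPM of the group. Fgf11 had 1.31 and 1.82 TPM, and Fgf12 had 0.85 and 0.79 TPM. Fgf14 had 0.68 TPM in replicate 1 and 0.14 TPM in replicate 2, from 71 and 14 counts. Fgf13 stood above Fgf11 by 4.53 ± 0.49 and above Fgf12 by 5.37 ± 0.11 on the log2 scale.

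Fgf13 transcripts begin with different first exons that give the protein different N-termini. The coding parts of these exons are shown, with the start codon in capitals, for the short upstream model Fgf13-205, for Fgf13-202, which codes for the form called U, and for Fgf13-201, which codes for the form called S.
Fgf13-205 (chrX:59567140-59567188, minus strand): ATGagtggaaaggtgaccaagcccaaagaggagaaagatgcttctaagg
Fgf13-202 (chrX:59166013-59166040, minus strand): ATGgctttgttaaggaagtcatattcag
Fgf13-201 (chrX:59133877-59134063, minus strand): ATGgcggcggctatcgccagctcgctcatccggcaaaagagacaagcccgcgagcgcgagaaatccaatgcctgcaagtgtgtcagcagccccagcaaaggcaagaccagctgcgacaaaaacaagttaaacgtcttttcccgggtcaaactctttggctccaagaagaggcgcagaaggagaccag

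The U form took a large part of Fgf13 in both pups and the S form a small one. By TPM, the 5 upstream models held 56.93% of Fgf13 in replicate 1 and 52.12% in replicate 2, Fgf13-202 held 39.01% and 44.72%, and Fgf13-201 held 4.06% and 3.16%. By expected counts the order of the first pair turned, with 32.13% and 27.6% in the upstream models and 60.3% and 66.75% in Fgf13-202. The upstream share by TPM rested mainly on Fgf13-205, a model of 575 nt with 18.84 TPM in replicate 1 and 12.78 TPM in replicate 2 from 268.16 and 172.06 counts. Which of these starts was used most therefore depends on the unit, and the low place of Fgf13-201 does not. The highest Fgf13 model by TPM was Fgf13-205 in replicate 1 and Fgf13-202 in replicate 2.

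Among the kinase receptors Fgfr1 was highest and Fgfr4 second in both pups. Fgfr1 (ENSMUSG00000031565, chromosome 8, 25513654 to 25575718), the broad mesenchymal receptor, had 35.21 TPM in replicate 1 and 23.76 TPM in replicate 2. Fgfr4 (ENSMUSG00000005320, chromosome 13, 55152640 to 55168759), the receptor linked to myoblast differentiation, had 13.81 TPM in replicate 1 and 16.88 TPM in replicate 2. Fgfr1 thus held 63.58% and 55.64% of the receptor TPM, a mean of 59.61% ± 5.61, and Fgfr4 held 24.94% and 39.53%, a mean of 32.23% ± 10.3. The log2 ratio of Fgfr1 over Fgfr4 was 1.34 in replicate 1 and 0.49 in replicate 2, so the order was the same but the distance was not.

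Fgfr2 (ENSMUSG00000030849, chromosome 7, minus strand), whose IIIb form is the epithelial receptor of Fgf7 and Fgf10, had 5.26 TPM in replicate 1 and 1.66 TPM in replicate 2. Fgfr3 (ENSMUSG00000054252, chromosome 5, 33721674 to 33737068), the receptor that restrains growth-plate cartilage, had 1.10 and 0.40 TPM from 126 and 46 counts. Fgfr3 shares 998 exonic bases with a gene on the other strand, G630022F23Rik. Both receptors were higher in replicate 1, and together they held at most 11.5% of the receptor TPM in a pup.

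The forms were compared among the models that hold one of the exons and not the other. For Fgfr1 these models made up 82.77% of the TPM of the gene in replicate 1 and 77.4% in replicate 2, and IIIc took 96.4% and 96.63% of that part. The IIIb form of Fgfr1 rested on 145.7 expected counts in replicate 1 and 81.35 in replicate 2, against 3337 and 1996 for IIIc. For Fgfr2 they made up only 41.33% in replicate 1 and 65.06% in replicate 2, and the largest Fgfr2 model of replicate 1, Fgfr2-217, holds neither exon. Within that part IIIc took 74.65% and 89.81%, from 178 and 106.1 IIIc counts and 47.01 and 7.08 IIIb counts. Set against the whole gene, IIIc models had 1.62 of 5.26 TPM in replicate 1 and 0.97 of 1.66 TPM in replicate 2. For Fgfr3, where such models made up 90.09% and 97.5%, the pups differed, with 25.0% IIIc in replicate 1 and 100% in replicate 2. Fgfr3 IIIb had 88.27 counts in replicate 1 and 0 in replicate 2, while Fgfr3 IIIc had 28.18 and 44.81 counts.

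These shares come from a model that splits reads among 15 Fgfr1, 26 Fgfr2 and 12 Fgfr3 transcripts, of which 6, 15 and 8 enter the forms. For Fgfr3 the authors' deposited spread of the estimate is wide. Fgfr3-211, the IIIb model of replicate 1, had 88.27 expected counts with a model SD of 22.66, and from posterior means the IIIc share of Fgfr3 was 40.17% in replicate 1 and 69.49% in replicate 2. For Fgfr2 the same change gave 63.68% and 67.97%. Posterior means also give a level to models without reads, as Fgfr3 IIIb in replicate 2 had 0 counts and 0.18 TPM. For Fgfr2, 10 IIIb and 5 IIIc models enter, so at low counts these shares also depend on the number of models. The IIIc share was higher in replicate 2 than in replicate 1 for Fgfr2 and Fgfr3 in both units, and by how much depended on the unit.

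Esrp1 and Esrp2, splicing factors of epithelial cells that promote the IIIb exon of Fgfr2, had 125 and 115 counts in replicate 1, against 0 and 11.15 in replicate 2. After scaling, the 95% counting interval of the ratio of replicate 1 over replicate 2 began at 28.81-fold for Esrp1 and ran from 4.86 to 18.58-fold for Esrp2. Both lie below a mean of 100 counts. The other 6 of the 8 listed splicing regulators lie above it and 0 of them were past 2-fold, Ptbp1 having a log2 ratio of 0.36 and Rbfox1, Rbfox2, Ptbp2, Mbnl1 and Celf1 ratios between -0.35 and -0.18, lower in replicate 1. Fgfbp1, a secreted carrier that releases FGFs from heparan sulfate and is known from skin, had 174 counts in replicate 1, against 0 in replicate 2. Its counting interval began at 40.27-fold. The epidermis markers, 8 genes, summed to 623.1 TPM in replicate 1 and 15.82 TPM in replicate 2. Of the 8, 7 were more than 2-fold higher in replicate 1, led by Krtdap at 186.33 and 6.74 TPM, Trp63 being the other at 6.44 and 4.88 TPM. Krt5, Krt14, Lor and Dsg1a had 2 or 3 counts in replicate 2, and none of the 8 was at 0. The part of epidermal RNA in the receptor forms was not tested.

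**Figure D2:**
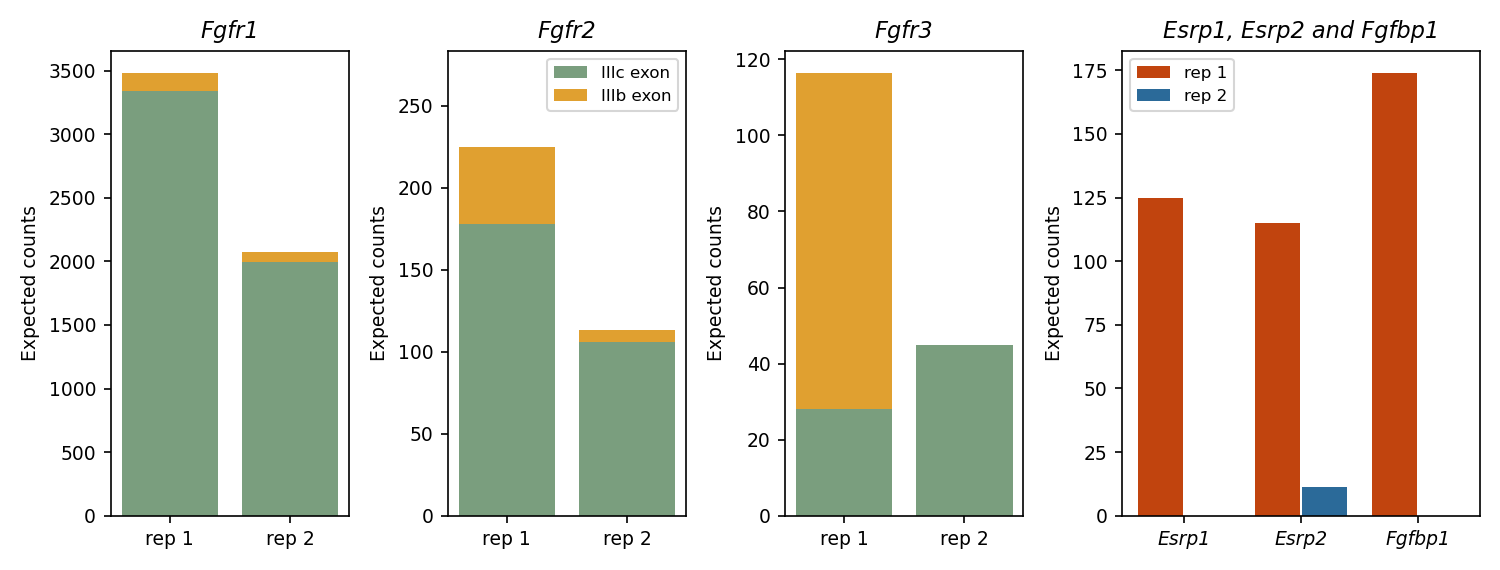
Expected counts of models with the IIIc exon (green) and the IIIb exon (orange) of Fgfr1, Fgfr2 and Fgfr3 in replicate 1 and replicate 2, and counts of Esrp1, Esrp2 and Fgfbp1 in the right panel, each panel with its own linear axis. The IIIb part of Fgfr3 is 88.27 counts in replicate 1 and 0 in replicate 2, and Esrp1 and Fgfbp1 are at 0 in replicate 2.

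Fgfrl1 (ENSMUSG00000008090, chromosome 5, 108692382 to 108706924) was the highest of all members. It codes for a membrane protein that binds FGFs and heparin but has no kinase domain, and mice without it die at birth with a malformed diaphragm. Its level was 78.88 TPM in replicate 1 and 101.91 TPM in replicate 2, from 5940 and 7198 counts. It exceeded Fgfr1 by 1.16 in replicate 1 and 2.10 in replicate 2 on the log2 scale of TPM. Its mean of 90.39 ± 16.28 TPM put it at percentile 89.8 among protein-coding genes at or above 1 TPM.

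Receptors of this family can also leave out the exon for the first immunoglobulin-like loop, a change known to raise ligand affinity in Fgfr1. The exon is shown for Fgfr1 and Fgfrl1, where the skipped models were the best covered, with the codons of the cysteine pair that closes such a loop in capitals.
Fgfr1 (chr8:25555508-25555774, plus strand): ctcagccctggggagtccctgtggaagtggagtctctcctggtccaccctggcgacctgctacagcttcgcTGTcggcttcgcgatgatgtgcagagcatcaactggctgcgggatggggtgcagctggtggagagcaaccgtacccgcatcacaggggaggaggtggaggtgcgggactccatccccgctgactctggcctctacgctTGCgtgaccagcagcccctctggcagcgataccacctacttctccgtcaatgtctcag
Fgfrl1 (chr5:108703286-108703558, plus strand): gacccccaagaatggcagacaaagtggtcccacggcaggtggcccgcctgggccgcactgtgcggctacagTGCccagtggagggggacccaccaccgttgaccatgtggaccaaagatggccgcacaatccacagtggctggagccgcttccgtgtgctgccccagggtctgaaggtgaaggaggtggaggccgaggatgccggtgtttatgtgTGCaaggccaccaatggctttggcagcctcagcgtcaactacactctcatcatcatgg

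Among the models compared, the form without this exon was the minor one of Fgfrl1 and Fgfr1 and the major one of Fgfr2. For Fgfr1 and Fgfr2 these were coding models with a IIIb or IIIc exon, with Fgfr2-205 left out. For Fgfrl1 the skipped form took 14.11% of TPM in replicate 1 and 21.83% in replicate 2, from 760.2 and 1437 counts. For Fgfr1, among the models compared, it took 29.88% and 28.71%. For Fgfr2 it took 67.45% and 74.07% of the models compared, from 156.1 and 87.42 counts. Of the whole Fgfr2 gene, that was 1.43 of 5.26 TPM in replicate 1 and 0.80 of 1.66 TPM in replicate 2. Fgfr1 was thus close to the same in both pups, whereas the skipped Fgfrl1 model had a larger share in replicate 2. The lengths of the Fgfrl1 models in the tables differ from those in GENCODE M21.

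**Figure D3:**
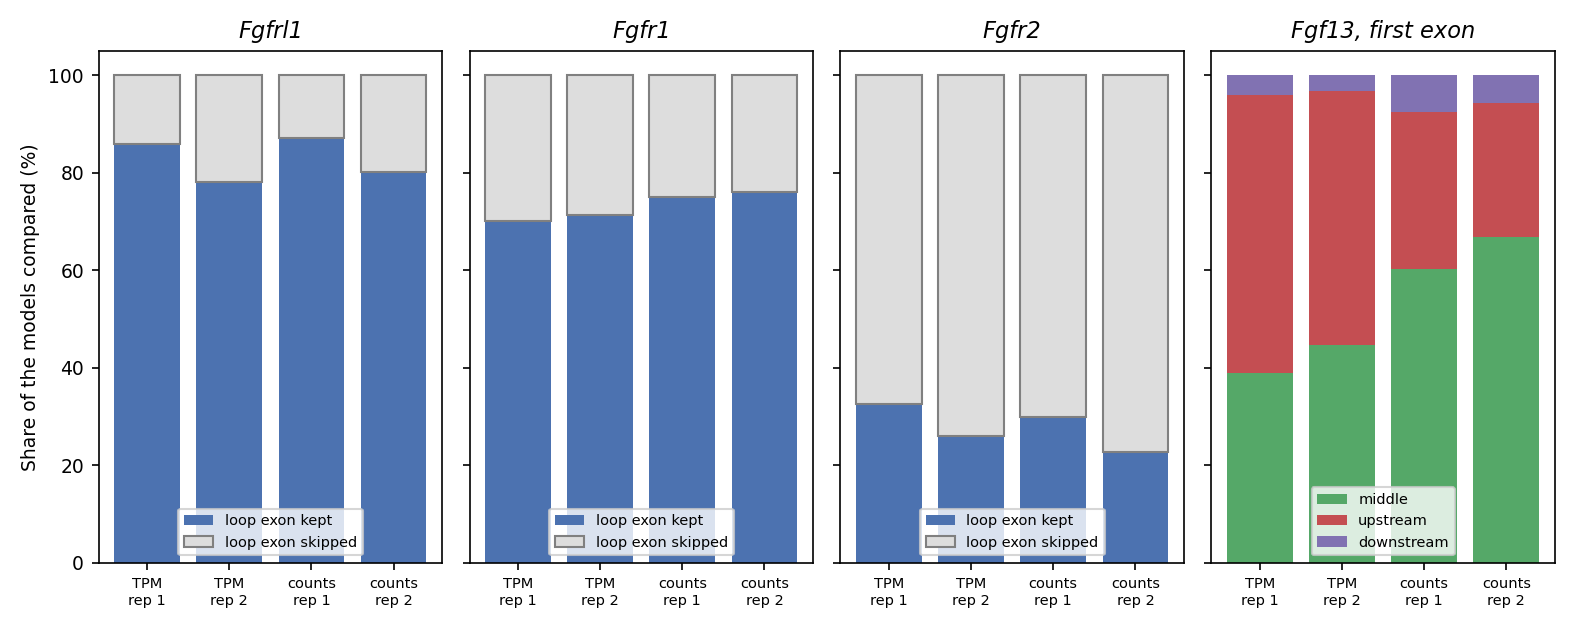
Share of models that keep or skip the first loop exon of Fgfrl1, Fgfr1 and Fgfr2, and share of Fgf13 by first exon, in percent of the models compared, by TPM and by expected counts for replicate 1 and replicate 2. The loop shares differ little between the units, whereas Fgf13-202 (middle) holds 39.01% and 44.72% by TPM and 60.3% and 66.75% by counts.

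The klothos differed in how alike the pups were. Kl, the co-receptor of Fgf23, had 1.27 TPM in replicate 1 and 1.19 TPM in replicate 2. Klb (ENSMUSG00000029195, chromosome 5, 65348314 to 65384007), the co-receptor of Fgf21 and Fgf15 that is best known from fat and liver, had 7.14 TPM in replicate 1 and 1.18 TPM in replicate 2, from 718 and 112 counts. The pups were close for Kl and far apart for Klb. The log2 ratio of Klb over Kl was 2.40 in replicate 1 and -0.01 in replicate 2.

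Spry2 led the Sprouty genes, which code for inhibitors induced by FGF signalling. Spry2 (ENSMUSG00000022114, chromosome 14, 105891947 to 105896819) had 48.45 TPM in replicate 1 and 47.22 TPM in replicate 2, the smallest SD in TPM among the 5 highest members. Spry1, which is known for the return of satellite cells to quiescence, had 14.25 and 10.76 TPM. Spry4 had 7.33 and 4.62 TPM. The order Spry2, Spry1, Spry4 was the same in both pups, and Spry2 held 69.2% and 75.4% of the Sprouty TPM. The exons of Spry1 share 710 bases with Gm42922 on the other strand.

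The Spred genes, which code for Sprouty-related proteins that act on Ras and Raf, were lower. Spred1, which recruits neurofibromin to the membrane, had 5.23 TPM in replicate 1 and 5.28 TPM in replicate 2. Spred2 had 2.83 and 2.05 TPM, and its leading model was Spred2-201 in replicate 1 with 51.7% and Spred2-202 in replicate 2 with 73.87%. Spred3 had 0.31 and 0.46 TPM from 33 and 48 counts. All 3 Sprouty genes and 2 of 3 Spred genes reached 1 TPM.

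The same transcript led in both pups for 12 of 15 members at or above 1 TPM with at least 2 models. The exceptions were Fgf13, Fgfr2 and Spred2. Fgfr4-201 took 91.61% of Fgfr4 in replicate 1 and 88.94% in replicate 2, and Spry1-203 took 46.27% and 55.9% of Spry1. Fgf18-201 took 83.94% and 70.96% of Fgf18. Single-model members such as Fgf6 and Klb have no such choice.

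Differences between the pups were expressed as the log2 ratio of replicate 1 over replicate 2 of scaled counts. A ratio of at least 2-fold, asked of members with at least 100 mean counts, was found for 2 of 20 members, Klb and Fgfr2, both higher in replicate 1. The background was 2.48% of 11873 protein-coding genes, with 2.37% higher in replicate 1 and 0.118% higher in replicate 2. Members at 100 counts had a median log2 ratio of 0.05, against 0.02 over these genes. The 95% counting interval excluded equality for 12 of the 20, against 53.8% of the genes. It lay above 1 for 6 of them (background 29.2%) and below 1 for 6 (background 24.6%). Counting intervals cover counting error only and hold no term for variation between animals or libraries. Amplified reads that carry no molecular identifier cannot be taken as separate molecules, so the intervals may be too narrow even for that error.

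Klb differed most, with a log2 ratio of 2.45, or 5.53-fold (95% counting interval 4.53 to 6.81). The adipocyte markers, 8 genes, were also higher in replicate 1, with sums of 5086 TPM there and 891.5 TPM in replicate 2. All 7 of them with 100 mean counts were past 2-fold and higher in replicate 1, led by Fabp4 at 2591.34 and 786.85 TPM and with Adipoq at 380.71 and 36.01 TPM, and none of the 8 was at 0. The liver list, for the other tissue of Klb, summed to 615.7 and 97.97 TPM, but of its 7 genes Trf alone was higher in replicate 1, at 591.27 and 64.21 TPM. The other 6 were lower there, Alb having 5.97 and 7.75 TPM, and of the 4 with 100 mean counts 1 was past 2-fold, with a median log2 ratio of -0.59. In bulk tissue, fewer cells of a type and less RNA per cell cannot be told apart. The epidermis, cartilage, bone and tendon lists also had higher sums in replicate 1, so this direction was not particular to fat. The part of fat or of these other tissues in the Klb ratio was not tested.

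Fgfr2 had a log2 ratio of 1.19, or 2.29-fold (1.89 to 2.80), but part of it came from a single odd model. Fgfr2-217 joins 2 exons at the distant gene Ctbp2 to exons of Fgfr2, and 5 of its exons hold coding sequence. Fgfr2 and Ctbp2 share 314 exonic bases on the same strand, and whether reads of Fgfr2-217 came from Ctbp2 was not tested. The model held 135.08 counts in replicate 1 and 26.14 in replicate 2. Without it Fgfr2 had 244.7 and 116.7 counts and 3.32 and 1.26 TPM, a ratio of 1.81-fold (1.44 to 2.27), which is below 2-fold. This calculation was added after the values were seen.

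Below 100 mean counts, Fgf14 was 4.38-fold (2.45 to 8.41) and Fgfr3 2.36-fold (1.67 to 3.39) higher in replicate 1. With a minimum of 10 mean counts these 2 joined Klb and Fgfr2, which made 4 of 27 members, against a background of 5.97%. The cartilage markers, 8 genes, were also higher in replicate 1, with sums of 46.67 TPM there and 4.82 TPM in replicate 2. Of the 5 with 100 mean counts, 4 were past 2-fold, led by Col2a1 at 24.09 and 0.27 TPM, Sox9 being the other at 5.75 and 3.29 TPM, and Snorc was at 0 in replicate 2. By expected counts the Fgfr3 excess lay in the IIIb form, with 88.27 and 0 counts, while IIIc had 28.18 and 44.81. By posterior means IIIb had 0.70 and 0.18 TPM and IIIc 0.47 and 0.41 TPM. The epidermis, adipocyte, bone and tendon lists also had higher sums in replicate 1. The part of cartilage or of these other tissues in the Fgfr3 values was not tested.

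Smaller ratios ran both ways. Spry4 was 1.45-fold, Fgfr1 1.37-fold (1.30 to 1.44) and Fgf10 1.34-fold (1.16 to 1.55) higher in replicate 1. Fgf11 had a ratio of 0.66, Fgf5 of 0.70, Fgfrl1 of 0.71, Fgf1 of 0.72 and Fgfr4 of 0.76, so each was higher in replicate 2. Fibroblast markers, 8 genes, summed to 6315 TPM in replicate 1 and 4532 TPM in replicate 2, with 0 of 8 past 2-fold. Skeletal muscle markers summed to 108600 and 119300 TPM, also with 0 of 8 past 2-fold, led by Acta1. Satellite cell markers summed to 173.4 and 168.2 TPM, led by Cd34, which alone had 114.89 and 100.19 TPM. Of those with 100 mean counts 1 of 5 was past 2-fold, Calcr, and that one was higher in replicate 2. Their median log2 ratio was -0.38. Pax7, Myf5 and Calcr had ratios of 0.76, 0.71 and 0.49, against 1.08 for Vcam1 and 1.04 for Cd34. None of these 3 lists had a gene at 0 in either pup, and their part in the smaller ratios was not tested.

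**Figure D4:**
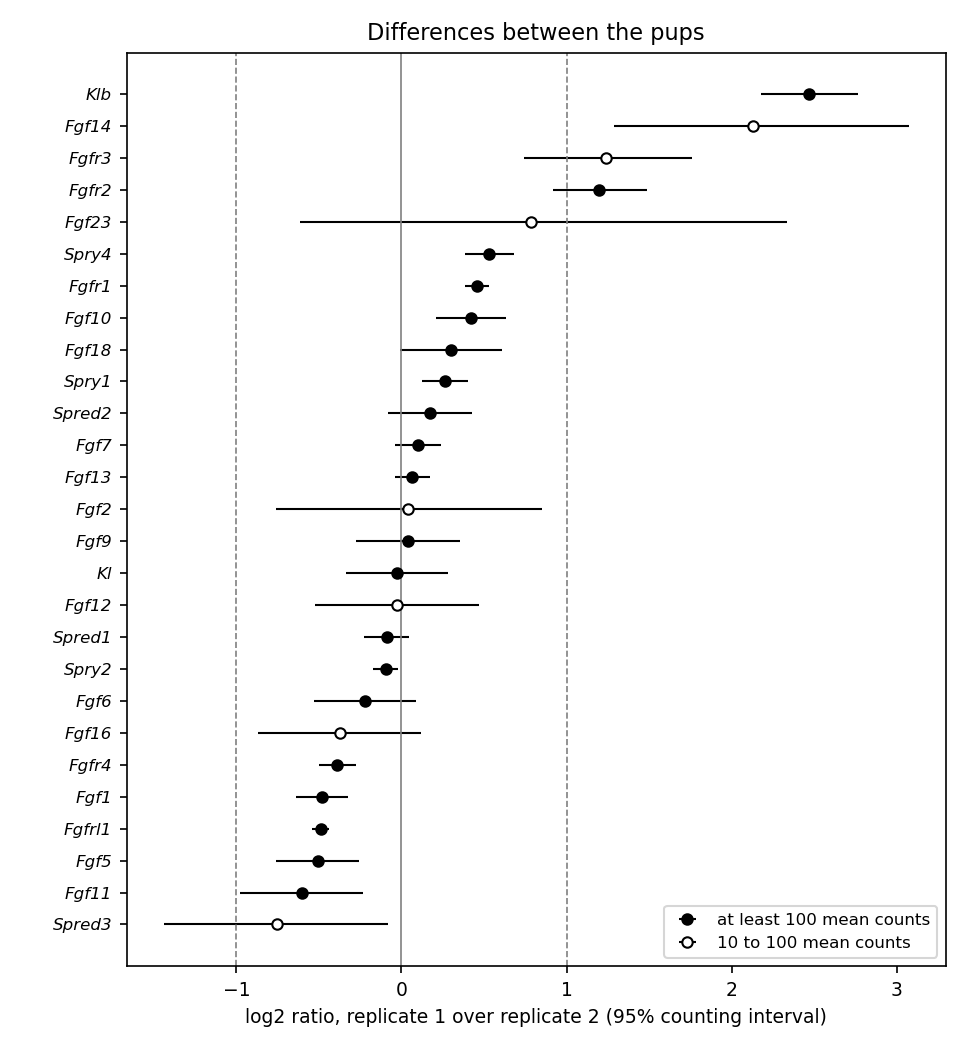
Log2 ratio of replicate 1 over replicate 2 with its 95% counting interval for the 27 members with at least 10 mean counts, filled where the mean is at least 100, with dashed lines at 2-fold. Klb, Fgf14, Fgfr3 and Fgfr2 lie beyond the right line, and no member lies beyond the left one.

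The remaining marker lists were counted among genes with 100 mean counts. Bone summed to 71.94 TPM in replicate 1 and 34.57 TPM in replicate 2 (2 of 3 past 2-fold, led by Ctsk, with Bglap at 0 in replicate 2), and tendon to 192 and 83.14 TPM (2 of 5, led by Tnmd), all higher in replicate 1. Endothelium, smooth muscle, leukocyte and Schwann cell lists had 0 of 7 each past 2-fold, with sums of 306.2 and 278 TPM, 364.9 and 335.9 TPM, 794.2 and 471.9 TPM, and 322.4 and 278.5 TPM in replicates 1 and 2. They were led by Egfl7, Acta2, Cpa3 and Pmp22.

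Of the wider pathway, 79 of 95 listed genes (83.2%) reached a mean of 1 TPM, against 58.2% of the protein-coding genes. Past 2-fold at 100 mean counts was 1 of 78 (1.28%), against 2.48% of all genes at that minimum. It was Dusp4, an ERK phosphatase, at 7.53 TPM in replicate 1 and 3.15 TPM in replicate 2. Its log2 ratio was 1.12. The median log2 ratio of the listed genes with 100 mean counts was -0.004. That minimum left out Fgfbp1, with 174 and 0 counts, Esrp1, with 125 and 0, and Esrp2, with 115 and 11.15. At a minimum of 10 mean counts, which a few of the 95 listed genes miss, 5 were past 2-fold. The background there was 5.97%, so the share of the listed genes lay near it.

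Of the adaptors, which link the receptor to Ras, 12 of 13 reached 1 TPM, led by Grb2 at 72.40 ± 8.56 TPM, Crk at 46.58 ± 4.24, Shc1 at 35.27 ± 4.60 and Crkl at 19.57 ± 0.89. All 13 genes of the Ras, Raf, MEK and ERK chain did so, led by Hras at 143.6 ± 11.8 TPM, Map2k2 at 123.4 ± 11.6, Araf at 98.93 ± 0.47 and Map2k1 at 96.81 ± 0.96. Of the ERK target and feedback genes 14 of 17 did, led by the ERK phosphatase Dusp6 at 39.27 ± 3.84 TPM, the cyclin Ccnd1 at 37.48 ± 10.80, Myc at 21.66 ± 3.91 and the ETS factor Etv5 at 18.48 ± 0.12. The median of the mean levels was 55.2 TPM for the Ras to ERK chain and 2.44 TPM for the 35 members, and Dusp6 lay between Spry2 and Fgf13.

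Heparan sulfate, the surface co-factor of the secreted ligands, is carried on core proteins such as glypicans and syndecans, and only their mRNA was measured. Of the core protein genes 12 of 13 reached 1 TPM, led by Gpc3 at 324.1 ± 21.6 TPM, Gpc4 at 105.9 ± 5.2, Gpc1 at 83.47 ± 1.08 and the syndecan Sdc4 at 43.41 ± 0.45. Of the genes that make or edit the chains 14 of 17 did, led by the polymerase subunit Ext2 at 37.59 ± 2.61 TPM, the sulfatase Sulf2 at 28.75 ± 12.78, the sulfotransferase Hs6st2 at 18.74 ± 0.40 and Sulf1 at 15.70 ± 1.89. Sulf2 had the widest spread of these, at 37.79 TPM in replicate 1 and 19.72 TPM in replicate 2.

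Of the list of FGF carriers and binding proteins 2 of 3 reached a mean of 1 TPM, Fgfbp1 at 5.52 and 0 TPM and Fgfbp3 at 2.62 and 2.16 TPM. The other gene of that list, the enzyme Galnt3, which glycosylates Fgf23, had 0.34 and 0.30 TPM from 25 and 6 counts. Its scaled counts were 3.6-fold (1.44 to 10.72) higher in replicate 1. Of the partners of the intracellular FGFs 6 of 11 reached 1 TPM, among them the kinase scaffold Mapk8ip1 at 14.82 ± 0.13 TPM and the sodium channel subunits Scn4a at 11.91 ± 3.69 and Scn4b at 5.76 ± 0.21. Scn4a, the adult muscle channel, had 9.30 TPM in replicate 1 and 14.52 TPM in replicate 2. Of the splicing regulators 6 of 8 did, led by Mbnl1 at 82.48 ± 1.77 TPM, Ptbp1 at 49.34 ± 12.86, Rbfox1 at 31.79 ± 2.90 and Rbfox2 at 31.73 ± 1.62, and the exceptions were Esrp1 and Esrp2.

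**Figure D5:**
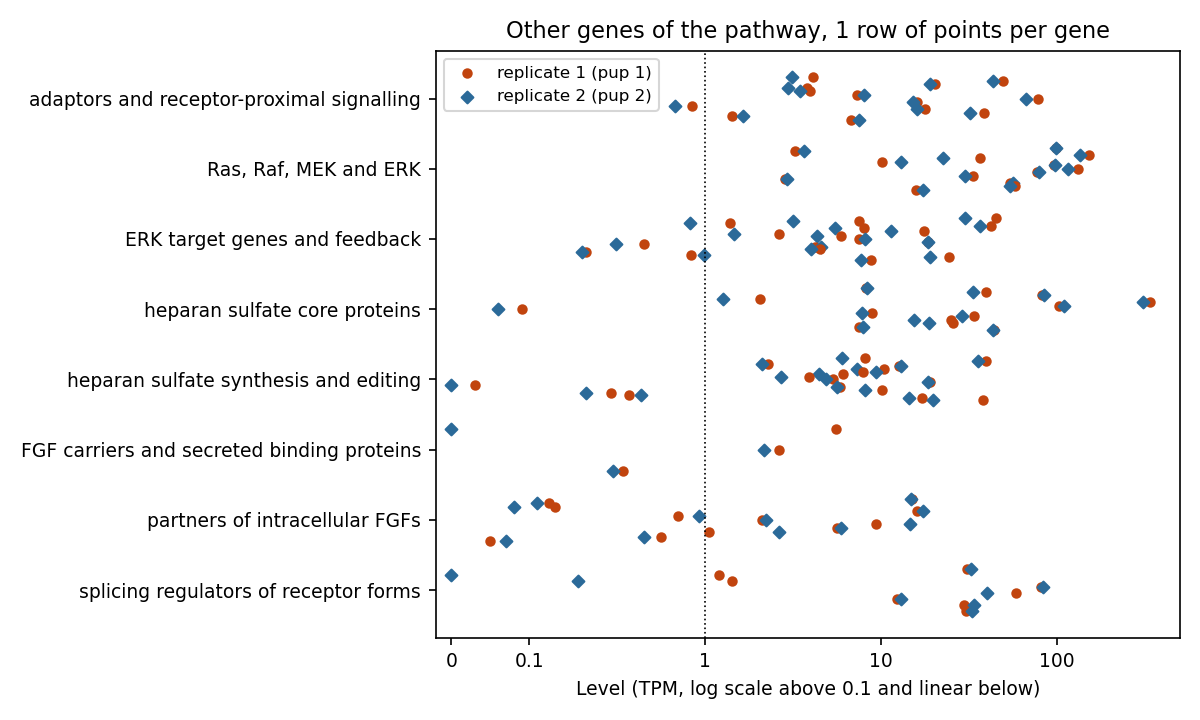
Level in TPM of the 95 other genes of the pathway in replicate 1 (circles) and replicate 2 (diamonds), by list, on an axis that is logarithmic above 0.1 and linear below, with a dotted line at 1 TPM. Gpc3 lies farthest right at 324.1 TPM on average, all 13 genes of the Ras to ERK chain lie right of the line, and Fgfbp1 and Esrp1 lie at 0 in replicate 2.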

How the data were processed

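Gene and transcript tables of 2 libraries were used, both on mm10 with GENCODE M4, per the file headers and the notes deposited with them. For the aligner, the quantifier and the strand setting, nothing is given in the sources used here. The authors deposited expected counts (estimated reads after shared reads are split among models), TPM, and each transcript's percent of the TPM of its gene, with posterior means of each. They also deposited a spread of each count estimate, treated as a score, which is quoted as the model SD. Their TPM interval bounds were not used.

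Names, positions and exons came from GENCODE M21 (mm10), matched by ID without version for 42462 of 43346 gene IDs. The tables also hold 96 spike-ins and 26249 other rows without a gene ID, with 0.00109% and 0.0012% of the counts of replicates 1 and 2, which stayed out. Expected counts were rounded and scaled by TMM (edgeR 4.0.16, R 4.3.3). Log2 CPM used a prior of 2 counts, and ratios are replicate 1 over replicate 2. Fold ratios and 95% intervals are exact Clopper-Pearson limits on the summed counts, which cover counting error only. A count of 0 was taken to allow up to 3 counts. Pairs of genes were compared as log2(TPM + 0.1). Receptor forms were found from annotated exons and summed over models. There was no test, because a single library per pup leaves edgeR without residual degrees of freedom. Alternatives were DESeq2 1.42.0 size factors, total counts, TPM scales, posterior means, other count minimums and leaving out a replicate. Python 3.11.15, pandas 2.3.3, numpy 2.4.6, scipy 1.17.1 and matplotlib 3.10.9 were used.

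Named are all members, up to 4 leading genes of each pathway list, pathway genes past 2-fold, the leading gene of each marker list and the models that decide receptor forms. Esrp1, Esrp2, Fgfbp3, Galnt3, the other markers given with values and the Fgfr2-217 model were named after their values were seen. The members and lists were chosen with earlier results of these data known. Anos1 was not matched. Some items that the naming rule or the exon comparison would give are not reported here.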

Additional observations from a re-analysis of the deposited data

How the results depend on the processing

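With 1 group of 2 pups, the levels are a description, and counting depth limits members under 100 mean counts, 15 of 35. By expected counts the Fgfr1 share of the kinase receptors was 65.37% (59.61% by TPM) and its IIIc share 95.95%, and by posterior-mean TPM the IIIc shares were 96.29% for Fgfr1 and 65.82% for Fgfr2, against 96.51% and 82.23% by TPM. Members past 2-fold numbered 4 of 27 with a minimum of 10 mean counts and 5 of 35 with none, against 2 of 20. Without the Fgfr2 model joined to Ctbp2 there was 1 of 20. Pathway genes past 2-fold numbered 5 with a minimum of 10, 6 with none and, on log2(TPM + 0.1), 2, against 1 of 78. The share of all protein-coding genes was 5.97% with a minimum of 10 and 3.01% on log2(TPM + 0.1), against 2.48%. No background was taken without a minimum. Over the settings that leave out a replicate, members at 1 TPM ranged from 22 to 23, secreted ligands from 9 to 9, pathway genes from 77 to 81, the Fgfr1 share from 55.64% to 63.58%, and the IIIc share from 96.4% to 96.63% for Fgfr1, 74.65% to 89.81% for Fgfr2 and 25.0% to 100% for Fgfr3. Counts past 2-fold need both pups and have no such value. Of 110 single-member ratios under 5 settings, 91 lay within the counting interval and 19 outside. A turn of direction was counted for the called members Klb and Fgfr2 alone, and 0 of their values turned. Kl turned its sign on total counts and TPM scales and Spry2 on TPM scales, neither of them past 2-fold. The median log2 ratio of the 11873 genes was 0.02 with TMM, 0.11 on total counts, 0.15 on log2(TPM + 0.1) and 0.14 on log2(TPM + 1). No paired analysis was possible because there is only 1 group.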
